A study of Homo sapiens with 54 samples.

Results

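Oxymatrine and oxysophocarpine are alkaloids of Sophora flavescens, one of the plants from which compound Kushen injection (CKI) is made, and each is the N-oxide of another alkaloid of that plant, matrine and sophocarpine. The comparison described here asked what these 2 compounds, given together without the rest of CKI (the mixture named OO), changed in the mRNA of MDA-MB-231 cells after 48 h. It rests on 6 of the 54 libraries of the study, 3 of cells given OO and 3 of untreated cells, which were chosen by their labels for treatment, time and batch and all belong to batch 1. The cells were grown as 1 established line from a human breast cancer, in medium with fetal bovine serum, and carried no engineered change in any group. OO was given at the amount present in CKI of 2 mg/ml, and the labels give neither the concentration of each compound nor the vehicle of the untreated cultures. Further groups of batch 1 with 3 libraries each were used only for contrast, namely OO and untreated cells at 24 h, cells given OO plus macrozamin (MOO) for 48 h and cells given whole CKI at 2 mg/ml for 48 h. The labels state 3 biological replicates per group and do not say whether they were grown on separate days.

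A cell that folds more secretory protein than its endoplasmic reticulum (ER) can handle starts the unfolded protein response, in which the sensors IRE1, PERK and ATF6 raise the transcription of ER chaperones and, through the factors ATF4 and CHOP, of genes for amino acid supply and cell stress. Proliferating cells in turn keep up genes of DNA replication, which are driven by E2F factors, and genes of mitosis. Many tumour cells also express interferon-stimulated genes without added interferon. MDA-MB-231 cells are of the basal, mesenchymal type, lack the estrogen receptor, and are widely used to study migration and invasion.

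The 6 libraries held between 21124745 and 24708584 counts over genes, and the 10 genes with the most counts took between 4.96 and 5.21% of them. Defining markers of the line (VIM, CD44, AXL, CAV1, MSN, ANXA1, S100A4 and LGALS1) were present in every library, with a summed level of 5970 to 6150 CPM, which are counts scaled to a common library total after TMM adjustment, in untreated cells and 3660 to 3800 CPM with OO. ESR1, the estrogen receptor gene, had a level of 0 CPM in 5 of the 6 libraries and 0.0401 CPM in untreated replicate 1. The summed levels of 8 fibroblast markers were 72.7 to 75.5 CPM without and 26.6 to 30.2 CPM with OO, those of 7 leukocyte markers 130 to 147 and 106 to 112 CPM, and those of 9 luminal markers 860 to 977 and 617 to 673 CPM. Most of the luminal sum came from KRT19, and most of the leukocyte sum from CD68, which is not restricted to leukocytes. The fibroblast gene DCN had no counts in any of the 6 libraries. The part of these markers in the results was not tested. Untreated replicate 1 differed from the other 2 untreated libraries by more than they differed from each other (chi-square per degree of freedom of 7.18 and 9.48 against 2.63), while the 3 OO libraries differed by 2.31 to 2.75. In bulk RNA, fewer cells of one kind and less of an mRNA per cell cannot be told apart.

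After 48 h of OO, 9792 of the 14432 genes tested (67.8%) were DE, namely 4926 that were higher (34.1%) and 4866 that were lower (33.7%) in the treated cells. DE here means an adjusted p-value under 0.05 in the quasi-likelihood test of edgeR, adjusted over all genes tested by the Benjamini-Hochberg method, and all adjusted p-values below come from that test. Most changes were small. A change of at least 2-fold as well was found for 2032 genes (14.1%), of which 1002 were higher (6.94%) and 1030 lower (7.14%). The 3 OO libraries did not overlap with the 3 untreated libraries in 10238 genes (70.9%). Since so many genes moved, a share of DE members in a gene list is read below against these percentages. Scaling by library sizes alone instead of TMM gave 9889 DE genes of which 5967 were higher (60.3%, against 50.3% with TMM), and shifted the fold changes of all genes by 0.0978 on the log2 scale.

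IL24, a cytokine gene of the IL-10 family, rose most among the genes that averaged 10 CPM or more. Its level was 2.49, 3.28 and 3.06 CPM in the 3 untreated libraries and 99.0, 94.9 and 99.3 CPM with OO, a log2 fold change of 5.07 (SE 0.0844, adjusted p = 5.23e-19). The 2 groups were far apart and the OO libraries lay close together. MMP1, the gene of interstitial collagenase, went from 9.7, 8.91 and 8.93 CPM to 204, 205 and 221 CPM, a log2 fold change of 4.53 (SE 0.0667, adjusted p = 1.09e-19). DDIT3, which encodes CHOP, went from 22.1, 23.4 and 21.4 CPM to 207, 199 and 206 CPM (log2 fold change 3.21, SE 0.057), and ATF3, a stress-induced partner of the same factor family, from 8.3, 8.08 and 8.53 CPM to 69.0, 71.3 and 74.2 CPM (3.12, SE 0.0694). In none of these genes did a library of one group reach the range of the other, a condition under which the 24 leading genes were chosen. The other genes among the 12 with the largest rise were PSG7 (4.37), the long non-coding RNA LUCAT1 (3.96), the inducible chaperone gene HSPA6 (3.80), PSG8 (3.42), the hair keratin gene KRT34 (3.37), SCG5, which encodes a chaperone of prohormone processing (3.17), ATP6V0D2, a subunit of the vacuolar proton pump (3.08), and SUN3 (2.99), all values being log2 fold changes. Reads of HSPA6 and of the PSG genes can also match close copies of these genes, so the split between copies is uncertain. The PSG genes as a family, which encode pregnancy-specific glycoproteins of the placenta, were picked out after their values were seen. All 10 of them with enough counts were higher with OO, with a median log2 fold change of 2.47. PSG1, which had the highest CPM of them in OO-treated cells, went from a mean of 9.91 CPM to 59.2 CPM.

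**Figure D1:**
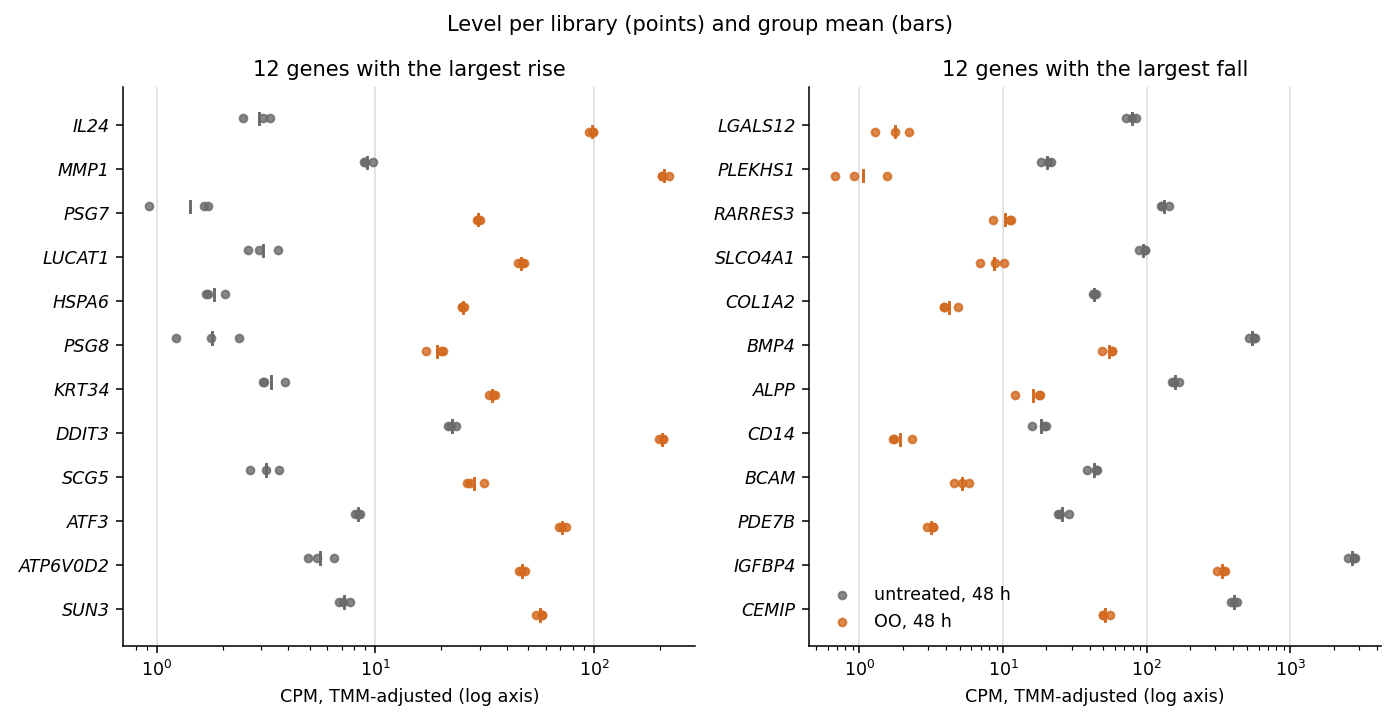
Level of the 12 genes with the largest rise (left) and the 12 with the largest fall (right) with OO at 48 h among genes that averaged 10 CPM or more and did not overlap between groups, in CPM on a log axis. Points are the 3 untreated (grey) and 3 OO (orange) libraries and bars the group means. IL24 lies between 2.49 and 3.28 CPM without and between 94.9 and 99.3 CPM with OO, and LGALS12 between 71.9 and 84.0 CPM without and between 1.28 and 2.23 CPM with OO.

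LGALS12, which encodes a galectin known from fat cells, fell most. It had 71.9, 84.0 and 79.1 CPM in untreated cells and 2.23, 1.76 and 1.28 CPM with OO, which is 32 to 50 counts per library, a log2 fold change of -5.47 (SE 0.114, adjusted p = 6.17e-18). BMP4, a ligand of the BMP branch of TGF-β signalling, had 513, 554 and 563 CPM without and 57.4, 57.4 and 49.1 CPM with OO (-3.30, SE 0.0641). ID1, a classical target gene of BMP signals, went from 46.1, 47.5 and 44.1 CPM to 6.65, 5.41 and 6.66 CPM (-2.87, SE 0.0839). Each of these genes was lower in every OO library than in every untreated one. IGFBP4, which binds insulin-like growth factors outside the cell, had the highest CPM among the 12 that fell most. It had 2500, 2790 and 2820 CPM without and 351, 342 and 309 CPM with OO (-3.00, SE 0.0605). CEMIP, a gene for breakdown of hyaluronan, went from 425, 387 and 402 CPM to 55.6, 49.6 and 49.6 CPM (-2.96, SE 0.0593). COL1A2, a chain of type I collagen, went from 42.9, 44.2 and 42.4 CPM to 4.82, 3.89 and 3.87 CPM, and made up most of the summed fibroblast markers in untreated cells. The rest of the 12 were PLEKHS1 (-4.26), the retinoid-responsive gene RARRES3 (-3.65), the organic anion transporter SLCO4A1 (-3.45), the placental phosphatase ALPP (-3.28), the co-receptor CD14 (-3.23), the laminin receptor BCAM (-3.03) and the phosphodiesterase PDE7B (-3.02). The S100A genes, small calcium-binding proteins, were also picked out after their values were seen. Of 10 tested, 9 were lower and none higher, with a median log2 fold change of -0.82. S100A4, a marker of the line that is linked to metastasis, went from 702, 782 and 716 CPM to 163, 152 and 145 CPM (-2.24, SE 0.0564).

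The genes of the unfolded protein response were higher with OO. Members of this and later lists are named as highest or lowest among those that averaged at least 1 CPM. All 18 listed ER chaperones and factors of ER quality control were DE and higher, with log2 fold changes from 0.52 to 2.63 and a median of 1.29, whereas the median over all genes was 0.01. HSPA5, which encodes BiP, the main chaperone of the ER lumen, had 1320, 1240 and 1260 CPM in untreated cells and 7830, 7630 and 7980 CPM with OO, a log2 fold change of 2.63 (SE 0.0477, adjusted p = 1.25e-18). HERPUD1, a component of the machinery that removes misfolded ER proteins, went from 51.5, 54.4 and 49.1 CPM to 288, 280 and 297 CPM (2.5, SE 0.0545). XBP1, the transcription factor activated by IRE1 and also on the luminal marker list, went from 81.6, 83.7 and 85.0 CPM to 150, 146 and 147 CPM (0.84, SE 0.0487). In the 3 genes every OO library was above every untreated one. Of 20 genes under ATF4 or CHOP, 18 were higher and 1 lower, with a median of 1.45, and 12 were at least 2-fold higher. The one that was lower was the amino acid transporter SLC7A5 (-0.13, adjusted p = 0.028), a call that was lost with library sizes alone (-0.03, adjusted p = 0.527), with a replicate block, with 18 or 36 libraries in 1 fit, and without untreated replicate 3 or without OO replicate 1 or 3. Of 20 cytosolic tRNA synthetases, some of which ATF4 controls, 13 were higher and 6 lower. WARS, for tryptophan, rose most (1.39, SE 0.0471), then GARS, for glycine (1.19, SE 0.047), while QARS (-0.54) and HARS (-0.40) fell.

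The promoters of 2 of these chaperones and of genes discussed further on are shown with the motif that was searched for in their list. The sequences are the 250 bases before the annotated start site, from RefSeq on GRCh38.p14, written 5′ to 3′ on the strand of the gene, with the motif in capitals. The ER stress element was searched as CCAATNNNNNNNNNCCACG on both strands. It occurred in 6 of the 17 promoters found for the chaperone list (35.3%) and in 26 of 35116 promoters in all (0.074%). In HSPA5 (chr9:125241344-125241593, minus strand) the copy begins 66 bases before the start site, and in HSP90B1 (chr12:103930160-103930409, plus strand), the gene of the chaperone GRP94, which rose by 1.35 on the log2 scale, copies begin 194 and 89 bases before it.
HSPA5: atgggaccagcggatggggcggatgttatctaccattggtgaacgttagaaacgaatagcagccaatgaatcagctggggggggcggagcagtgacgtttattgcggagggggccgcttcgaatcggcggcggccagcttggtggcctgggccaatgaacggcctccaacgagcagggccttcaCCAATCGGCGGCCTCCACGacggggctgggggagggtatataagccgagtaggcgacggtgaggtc
HSP90B1: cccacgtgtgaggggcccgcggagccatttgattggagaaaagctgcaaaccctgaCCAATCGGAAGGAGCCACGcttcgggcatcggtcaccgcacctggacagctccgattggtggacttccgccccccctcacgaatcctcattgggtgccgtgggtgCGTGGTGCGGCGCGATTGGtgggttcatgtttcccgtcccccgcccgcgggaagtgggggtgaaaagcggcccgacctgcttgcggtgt
The amino acid response element, searched as TTGCATCA on both strands, was found in 1 of 17 promoters of the ATF4 and CHOP list (5.88%) and in 271 of all (0.772%). These matches, and those given further on, describe letters in a window and do not show that a factor was bound. Each motif was searched in 1 list chosen for it and in all promoters, and listed genes counted whether or not OO changed them. The lists were written with earlier results of these data known, so the shares describe the lists and are no result about OO. Listed genes entered with 1 promoter each.

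**Figure D2:**
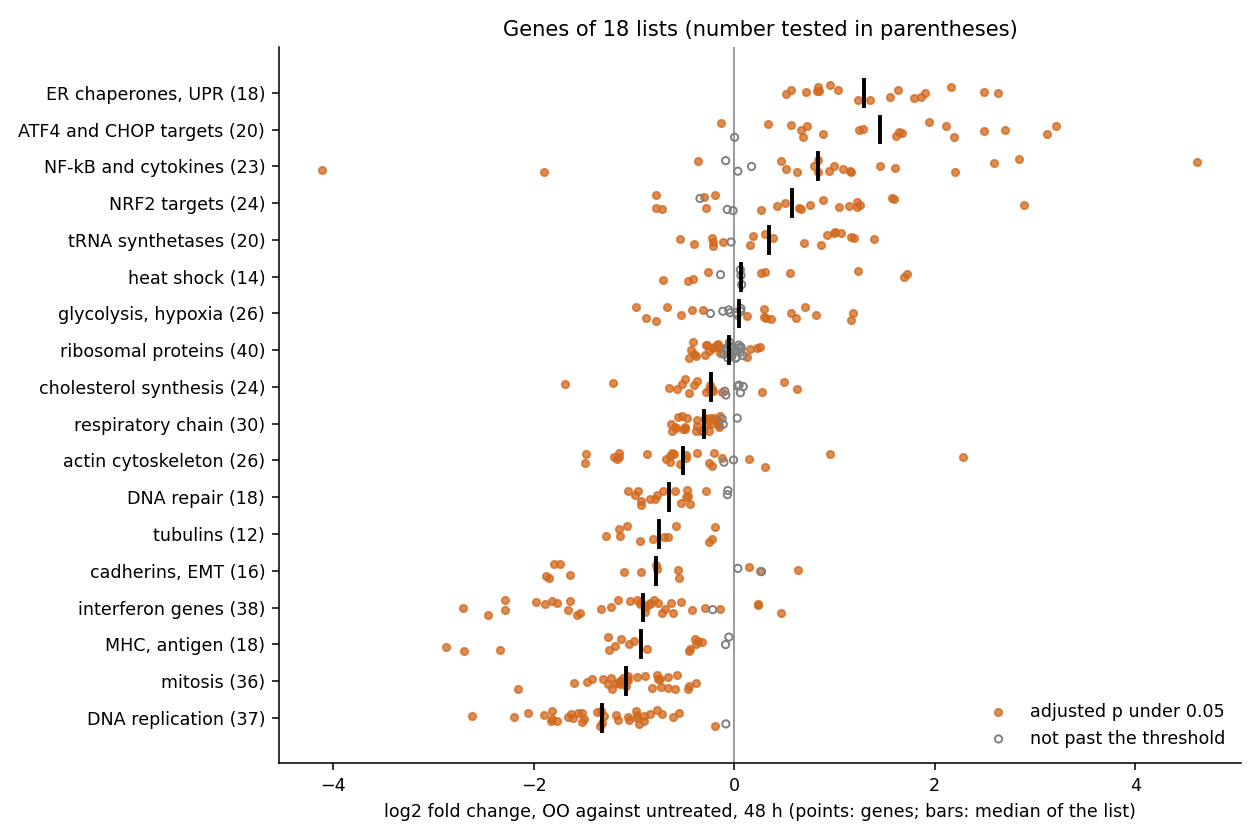
Log2 fold change with OO at 48 h of each tested gene of 18 lists. Filled points passed an adjusted p of 0.05, open points did not, and the black bar is the median of the list. All 18 ER chaperones lie right of 0 and all 36 mitosis genes left of it, while ribosomal proteins lie around 0.

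Other stress-related lists mostly had members in both directions. The shares called in the heat shock list (71.4%) and the iron list (69.2%) were close to the 67.8% of all genes. Of 24 targets of NRF2, the factor of the oxidative stress response, 15 were higher and 6 lower, with a median of 0.58. SLC7A11, the cystine transporter, went from 38.5, 30.3 and 29.2 CPM to 222, 240 and 260 CPM (2.89, SE 0.0834), and FTL, the ferritin light chain, from 1610, 1810 and 1730 CPM to 5250, 5020 and 5160 CPM (1.60, SE 0.0497). NQO1, a quinone reductase that is often read as the marker of NRF2, was at 172, 179 and 179 CPM without and 103, 96.6 and 104 CPM with OO, and so fell (-0.78, SE 0.0503, adjusted p = 6.49e-11). The same log2 fold change of -0.78 was found for AKR1C2, which has near-identical copies. SLC7A11 and FTL stand on the iron list as well, of whose 13 genes 6 were higher and 3 lower, among the latter the iron exporter SLC40A1 (-1.05) and the ferrireductase STEAP3 (-1.06). Of 14 heat shock genes, 6 were higher and 4 lower. HSPA1A and HSPA1B, whose reads are hard to separate, rose by 1.72 and 1.70 on the log2 scale, while HSPB1 (-0.71) and DNAJA1 (-0.46) fell. Among 5 tested metallothionein and zinc genes, MT1X (1.58) and MT2A (0.38) were higher and MT1F (-0.97) and the zinc exporter SLC30A1 (-0.30) lower. For the aryl hydrocarbon receptor, which senses planar aromatic compounds, 5 of 6 tested targets were higher and none lower. One of them was IL24, and another CYP1A1, the enzyme that serves as its classical readout, with 1.32, 1.2 and 1.05 CPM without and 7.27, 5.81 and 5.74 CPM with OO (2.40, SE 0.175). CYP1A1 did not overlap between groups but stayed low in level. Of 27 genes of lysosomes and autophagy, 12 were higher and 9 lower, with the autophagy gene WIPI1 (1.79) and the adaptor SQSTM1 (1.44) highest, and with the enzyme gene CTSZ (-0.86) among those that fell. The proteasome list had 5 genes higher and 16 lower of 26, from PSMD2 (0.48) and PSMA5 (0.33) to PSMA6 (-0.49) and PSMC3 (-0.59).

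Genes of cell division fell. Of 37 genes of DNA replication, 36 were lower and none higher, 24 of them at least 2-fold, with a median log2 fold change of -1.32. UHRF1, which carries DNA methylation through replication, had 171, 177 and 183 CPM in untreated cells and 29.9, 28.7 and 27.3 CPM with OO (-2.61, SE 0.0567, adjusted p = 1.05e-17), and TYMS, which makes thymidylate, 90.1, 89.9 and 86.0 CPM against 20.5, 18.0 and 19.1 CPM (-2.19, SE 0.0621). All 36 genes of mitosis were lower, 22 at least 2-fold, with a median of -1.07. KIF20A, a kinesin of cytokinesis, went from 100, 92.9 and 96.6 CPM to 21.0, 21.2 and 22.2 CPM (-2.15, SE 0.059), and MYBL2, a transcription factor of the G2 programme, from 91.2, 98.6 and 95.9 CPM to 31.7, 31.9 and 29.7 CPM (-1.60, SE 0.0575). Untreated and OO libraries did not overlap in the 4 genes. Of 18 genes of homologous recombination and the Fanconi pathway 16 were lower, with a median of -0.65, BARD1 (-1.06) and BRIP1 (-0.99) most. All 12 genes of a list of tubulins and STMN1 were lower too, with a median of -0.75 and TUBA1A (-1.28) and TUBB3 (-1.15) most.

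A binding motif of E2F, searched as TTTGGCGC or TTTCCCGC on both strands, was present in 13 of the 32 promoters found for the replication list (40.6%) and in 677 of all 35116 (1.93%). UHRF1 (chr19:4909251-4909500, plus strand) is shown as the member of that list that fell most, and its copy, written here in the reverse direction, begins 14 bases before the start site.
UHRF1: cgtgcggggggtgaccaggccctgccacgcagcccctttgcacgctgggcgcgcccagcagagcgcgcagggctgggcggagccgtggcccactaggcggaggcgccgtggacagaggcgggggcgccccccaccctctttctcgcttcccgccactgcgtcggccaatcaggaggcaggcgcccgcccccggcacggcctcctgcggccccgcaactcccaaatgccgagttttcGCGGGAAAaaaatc

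Inhibitors of the cell cycle and death genes moved both ways. Of 17 tested p53 targets and cyclin-dependent kinase inhibitors, 10 were higher and 4 lower. GADD45A, a gene of growth arrest, went from 90.8, 97.6 and 105 CPM to 314, 305 and 311 CPM (1.68, SE 0.0549), CDKN1A, which encodes p21, from 147, 154 and 158 CPM to 311, 306 and 307 CPM (1.03, SE 0.0481), and CDKN1C, which encodes p57, from 47.0, 62.5 and 68.0 CPM down to 10.8, 12.7 and 11.5 CPM (-2.33, SE 0.111). MDA-MB-231 cells are known to carry a mutant form of p53. FDXR (-1.10) was the other called fall named by the rule for that list. In the list of BCL2 family, inhibitor of apoptosis and death receptor genes, 8 were higher and 9 lower of 22, and none reached 2-fold. That split turned to 9 higher and 6 lower with library sizes alone, and to 8 higher and 6 or 7 lower without untreated replicate 2 or 3 or any 1 of the OO replicates. The death receptor TNFRSF10B, a CHOP target, rose by 0.78 and the inhibitor BIRC3 by 0.63, while BID (-0.91) and TNFRSF21 (-0.90) fell.

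Of 14 genes that the study took as core genes for CKI because they were shared by several gene sets, 13 were tested and 10 were lower, none higher, with a median of -0.31. The study chose these genes for CKI in the same cells, so their direction is no independent evidence. CCND1, cyclin D1, went from 809, 742 and 771 CPM to 349, 341 and 341 CPM (-1.16, SE 0.0478, adjusted p = 9.41e-14), and CDH1, E-cadherin, from 6.5, 6.23 and 6.65 CPM to 1.56, 1.56 and 2.19 CPM (-1.84, SE 0.157). Both had separate groups, and these 2 genes alone of the 13 changed by at least 2-fold. Smaller falls were found, among others, for CTNNB1, β-catenin (-0.78), AKT2 (-0.50), RB1 (-0.49), AKT1 (-0.42) and PIK3CA (-0.19, adjusted p = 0.0339). The call of PIK3CA was lost with library sizes alone (-0.09, adjusted p = 0.316), with 18 or 36 libraries in 1 fit, and without untreated replicate 1 or OO replicate 1 or 2. APC (0.10, adjusted p = 0.286), CDK4 (-0.11, adjusted p = 0.0667) and JAK2 (-0.20, adjusted p = 0.278) did not pass the threshold, and their libraries overlapped between the groups. APC was called with library sizes alone and without untreated replicate 1, CDK4 without a filter beyond 1 count and without untreated replicate 1 or OO replicate 1, and JAK2 without untreated replicate 2. In the wider list of growth signalling, 6 of 23 were higher and 11 lower, with IGFBP3 (0.86) and IRS2 (0.79) at the top and IGFBP4 and IGFBP6 (-1.87) at the bottom. With library sizes alone 9 of that list were higher and 8 lower.

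Interferon-stimulated genes were lower with OO, and the labels name no added interferon. Of 38 such genes 34 were lower and 3 higher, 16 at least 2-fold lower, with a median of -0.91. IFIT1, an antiviral RNA-binding protein, had 74.3, 79.7 and 71.0 CPM in untreated cells and 16.1, 14.2 and 15.3 CPM with OO (-2.29, SE 0.0682, adjusted p = 7.92e-16), and OAS1, a sensor of double-stranded RNA, 5.61, 5.87 and 6.17 CPM against 1.25, 1.16 and 1.16 CPM (-2.29, SE 0.162). The groups were separate in both. STAT2 (0.47) and IRF7 (0.24), which belong to the signalling path itself, were higher. IRF7 lost its call without untreated replicate 1 (adjusted p = 0.052), without OO replicate 2 (adjusted p = 0.0585) and with 18 libraries in 1 fit (adjusted p = 0.0935). Both genes lost it with 36 libraries in 1 fit. None of the 18 genes of MHC and antigen presentation was higher and 16 were lower, with a median of -0.93. HLA-DRA, a chain of MHC class II, went from 51.7, 61.6 and 60.3 CPM to 8.3, 8.02 and 7.17 CPM (-2.87, SE 0.0856), and its activator CIITA from 10.2, 12.4 and 10.4 CPM to 1.25, 1.8 and 1.95 CPM (-2.69, SE 0.153). The interferon-stimulated response element was searched as GAAANNGAAA on both strands and was present in 16 of 30 promoters of the list (53.3%) against 1061 of all (3.02%). IFIT1 (chr10:89392373-89392622, plus strand) is shown as a called member with 2 copies, written in the reverse direction, which begin 116 and 103 bases before its start site.
IFIT1: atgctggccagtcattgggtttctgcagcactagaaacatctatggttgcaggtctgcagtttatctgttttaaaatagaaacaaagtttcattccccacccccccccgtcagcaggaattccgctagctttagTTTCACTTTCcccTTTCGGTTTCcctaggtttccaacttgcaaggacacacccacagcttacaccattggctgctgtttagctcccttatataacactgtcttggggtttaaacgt

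Genes of NF-κB and of inflammatory cytokines were mostly higher. Of 23 tested, 17 were higher and 3 lower, with a median of 0.84. IL1A, interleukin 1 alpha, was barely detected in untreated cells, with 0.601, 0.693 and 0.525 CPM, and reached 14.6, 13.6 and 16.2 CPM with OO (4.62, SE 0.161). CXCL8, interleukin 8, went from 25.3, 26.8 and 26.0 CPM to 182, 196 and 175 CPM (2.84, SE 0.0602). All 5 CXCL chemokine genes with enough counts, a family picked out after its values were seen, were higher, with a median of 1.60. TNFAIP2 (-1.89) and NFKBIA, which encodes the inhibitor of NF-κB (-0.36), fell. The third member that was lower was the chemokine gene CCL2, named after its values were seen, which had 0.882, 0.924 and 0.613 CPM without OO and 0.134, 0 and 0 CPM with it. Among immediate early genes 11 of 19 were higher and 3 lower. Among the higher were EGR1, at 47.6, 47.3 and 58.6 CPM without and 261, 308 and 264 CPM with OO (2.46, SE 0.0785), and the phosphatase DUSP1 (2.05), and KLF2 (-0.63) and IER5 (-0.31) were lower. Of 19 genes in the feedback of ERK signalling 9 were higher, among them DUSP5 (1.65) and EGFR, at 120, 89.9 and 87.5 CPM without and 232, 269 and 251 CPM with OO (1.35), and 7 were lower, among them SPRY1 (-1.38) and DUSP4 (-0.89).

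Migration was the subject of the study, which measured it under CKI, its major and minor fractions, and single compounds added to the minor fraction. The paper reports that oxymatrine added to the minor fraction left migration in its lines as it was with that fraction alone. It also reports that oxysophocarpine undid part of the inhibition by the minor fraction. It gives no migration result for OO. Genes of the cytoskeleton and of adhesion were mostly lower with OO. Of 26 genes of the actin cytoskeleton 20 were lower and 4 higher, with a median of -0.51. ACTG1, γ-actin, had 3770, 4000 and 4220 CPM in untreated cells and 1440, 1430 and 1390 CPM with OO (-1.47, SE 0.0491), and MYL9, a light chain of myosin II, 205, 254 and 246 CPM against 87.9, 81.6 and 79.7 CPM (-1.49, SE 0.069). ACTG1 shares long stretches with ACTB, so its level is uncertain. FLNC, filamin C, rose by 0.96, and CNN1, calponin, rose by 2.28 at a level of 0.231 to 0.525 CPM without and 1.12 to 1.92 CPM with OO. Of 21 genes of integrins and focal adhesion 12 were lower and 6 higher, with a median of -0.63. CAV1, caveolin 1, went from 710, 695 and 668 CPM to 218, 210 and 216 CPM (-1.67, SE 0.0476), and the adaptor TNS3 by -1.48, while the integrin chains ITGB3 (0.86) and ITGA5 (0.65) rose. For matrix and proteases 17 of 28 were lower and 7 higher. TIMP3, an inhibitor of metalloproteinases, had 888, 872 and 834 CPM without and 144, 146 and 139 CPM with OO (-2.58, SE 0.0499). The groups did not overlap. Of 16 genes of cadherins and epithelial-mesenchymal transition 11 were lower and 3 higher, with KRT8, an epithelial keratin (-1.88), and CDH1 lowest and the repressors ZEB2 (0.63) and ZEB1 (0.26) highest. TGF-β and BMP genes had 4 of 23 higher, among them GDF15, a stress cytokine that CHOP also induces (1.34), and SMAD7 (1.02), and 12 lower, among them BMP4 and ID1. Of 15 targets of YAP and TEAD 12 were lower, such as ARHGEF17 (-0.88) and CRIM1 (-0.54). The other called genes on that list were CYR61, at 1300, 1340 and 1400 CPM without and 2490, 2420 and 2290 CPM with OO (0.85), and ANKRD1 (0.32), both of which rose. The markers of the line carried the same direction, with 7 of 8 lower and none higher.

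The lists of metabolism differed in direction. All 27 called genes of 30 in the respiratory chain were lower, though none by 2-fold, with a median of -0.30 and NDUFA9 (-0.63) and SDHA (-0.62) lowest. Of 24 genes of cholesterol synthesis and uptake, 15 were lower and 3 higher. MVK, mevalonate kinase, fell by 1.21 on the log2 scale, and STARD4 (0.62) and HSD17B7 (0.50) rose. Among 13 genes of fatty acid synthesis 10 were lower and none higher, with FASN, fatty acid synthase, at 1480, 1430 and 1510 CPM against 652, 692 and 633 CPM (-1.15, SE 0.0486) and its activator SREBF1 at -0.99. In the list of glycolysis and hypoxia 11 of 26 were higher and 7 lower. NDRG1 (1.18) and VEGFA, the angiogenic growth factor (1.17), rose, and EGLN3, the oxygen sensor (-0.98), and LDHA, lactate dehydrogenase (-0.87), fell. Targets of PPAR had 6 of 9 higher and none lower, led by the lipid droplet gene PLIN2, at 51.0, 53.4 and 49.7 CPM without and 143, 139 and 141 CPM with OO (1.47), and by PDK4 (1.10). Of 8 targets of LXR, 4 were higher, with ABCA1 (0.74) and MYLIP (0.51) first, and 2 lower, NR1H3 (-0.49) and LPCAT3 (-0.46). Ribosome biogenesis had 7 of 27 genes higher, with ODC1 (1.10) and MYC (1.07) first, and 9 lower, with FBL (-0.53) and BOP1 (-0.49) first, but with library sizes alone 10 were higher and 8 lower. Of 40 ribosomal proteins 15 were lower and 4 higher with a median of -0.05, from RPL7A (-0.45) and RPS9 (-0.43) to RPS16 (0.26) and RPLP1 (0.23), but with library sizes alone 11 were lower and 13 higher, and without untreated replicate 1 there were 22 lower and 3 higher. Clock genes had 11 of 18 higher, such as RORA (1.47) and NFIL3 (1.46), and 4 lower, such as DBP (-1.26) and PER3 (-1.25). Among 15 drug transporter genes 3 were higher, including ABCC2 (1.25) and ABCC5 (0.41), and 6 lower, including SLCO4A1 and SLC47A1 (-0.63), whereas with library sizes alone 6 were higher and 4 lower.

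To ask whether the response had already been present at 24 h, the effect of OO was compared between the time points in 1 fit of 12 libraries. At 24 h itself 2338 of 14211 genes (16.5%) were DE against untreated cells of that time. The effect of OO differed between 48 and 24 h in 1757 of 14812 genes (11.9%), of which 677 had the higher fold change at 48 h (4.57%) and 1080 the lower one (7.29%), and 461 differed by at least 2-fold (3.11%). The spread among replicates was wider at 24 h. OO replicate 2 at 24 h departed from the other 2 of its group along the difference between the batches of untreated cells. Its slope was 0.587 over the 1108 genes that differed more than 2-fold between the batches. The slopes of the 6 libraries at 48 h were between -0.05 and 0.0677. At 24 h, CKI replicate 1 (0.628) and replicate 2 of CKI lacking some components (0.616) departed likewise. The other 33 libraries of batch 1 lay between -0.393 and 0.119. The column names of the departing libraries carry no replicate number, and the cause was not tested. Without OO replicate 2 at 24 h, 2597 genes differed between the time points, and without OO replicate 1 at 24 h, 4265 did. The genes named from this comparison kept their calls and directions without either. NGFR, a neurotrophin receptor, had 75.7, 68.6 and 64.2 CPM untreated and 45.5, 103 and 45.3 CPM with OO at 24 h, where the groups overlapped, and went from 80.2, 86.0 and 93.0 CPM to 12.9, 11.2 and 10.1 CPM at 48 h, so that its log2 fold changes of -0.08 and -2.91 differed by -2.81 (SE 0.364, adjusted p = 0.00037). HSPA5 had 740, 766 and 732 CPM untreated and 1290, 1660 and 1360 CPM with OO at 24 h, a log2 fold change of 0.97 against 2.63 at 48 h (difference 1.68, SE 0.131, adjusted p = 1.2e-05). MMP1 was already at 44.9, 34.0 and 45.7 CPM with OO at 24 h, above 10.5, 10.8 and 9.1 CPM without it, and its log2 fold change rose from 2.06 to 4.53. In the same direction differed KLF10 (by 1.67), the uridine phosphorylase UPP1 (by 1.66) and KCP (by 1.58), and in the other PLEKHS1 (-2.42), FAM111B (-2.36) and SLCO4A1 (-2.32).

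Across the lists, ER chaperones and replication genes had smaller median changes at 24 h than at 48 h. The 18 ER chaperones had a median log2 fold change of 0.56 at 24 h, with 7 called higher (8.54% of all genes were), and the difference between the time points was called for 12, all with the higher value at 48 h. The number was 15 without OO replicate 1 at 24 h, with 1 further gene called in the other direction, and 16 without replicate 2. Of 20 ATF4 and CHOP targets 16 were already higher at 24 h, with a median of 1.39, close to the 1.45 at 48 h, and the difference was called for 4 with the higher and 1 with the lower value at 48 h (8 and 1 without OO replicate 1 at 24 h, 4 and 3 without replicate 2). Replication genes had a median of -0.27 at 24 h with 12 of 37 lower (7.92% of all genes were), and 35 of 37 had a lower fold change at 48 h than at 24 h, as they did without either library. With 36 libraries in 1 fit the number was 23. For mitosis 21 of 36 were lower at 24 h, and 15 had a lower fold change at 48 h, a number that lay between 6 and 24 when 1 of the 12 libraries was left out and was 3 with 36 libraries in 1 fit. Interferon-stimulated genes had a median of -0.74 at 24 h with 21 of 38 lower. Cholesterol genes had 15 of 24 higher and none lower at 24 h, with a median of 0.53, and 17 differed, all with the lower fold change at 48 h. Glycolysis and hypoxia genes likewise had 16 of 26 higher and none lower at 24 h, with a median of 0.75, and 19 differed in that direction. CCND1 changed by -0.22 at 24 h and by -1.16 at 48 h (difference -0.91, adjusted p = 0.00074).

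**Figure D3:**
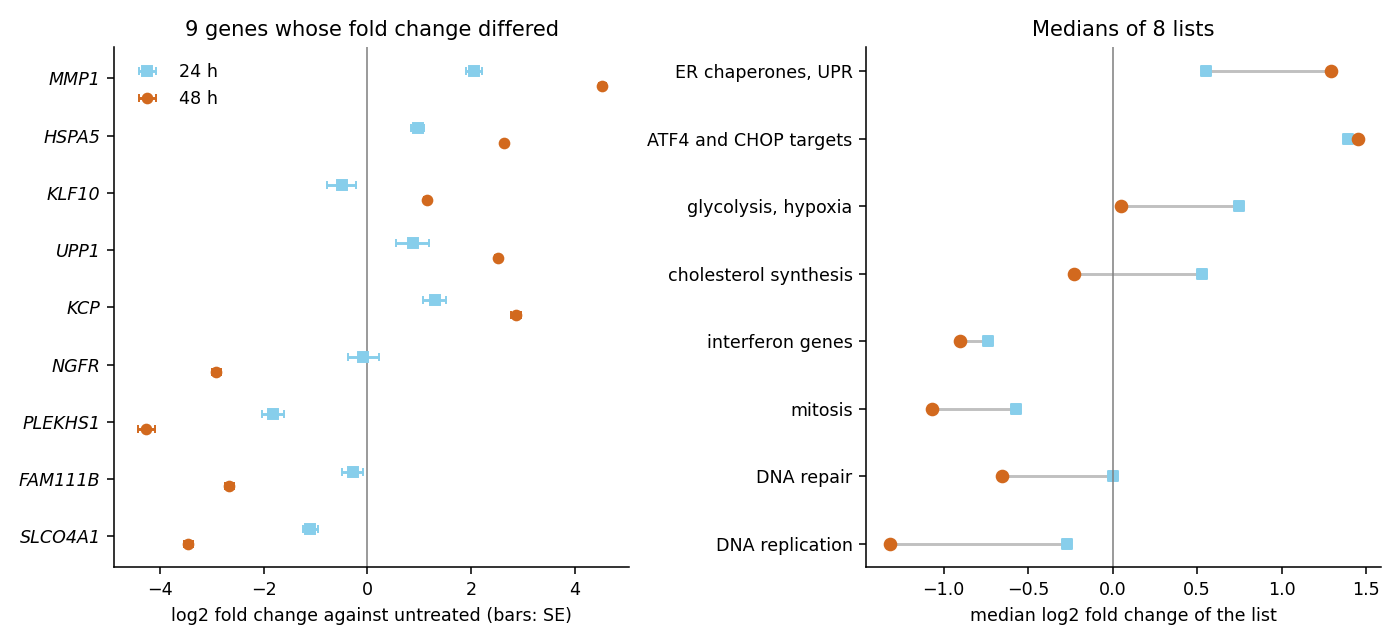
Left, log2 fold change of OO against untreated cells at 24 h (squares) and 48 h (circles) with its SE for 9 genes that averaged 10 CPM or more, taken from the largest differences between the time points in each direction. Right, the median log2 fold change of 8 lists at both times. HSPA5 lies at 0.97 and 2.63, NGFR at -0.08 and -2.91, and the median of the ATF4 and CHOP targets moved from 1.39 to 1.45.

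Macrozamin, a glycoside found in CKI, was added to OO in the MOO mixture, and the direct comparison of OO with MOO at 48 h found 1402 of 14421 genes DE (9.72%), 551 higher (3.82%) and 851 lower (5.9%) with OO. A difference of at least 2-fold was found for 19 genes (0.132%). The count of 1402 changed with the libraries in the fit, and the cause was not tested. It was 307 when all 18 libraries of batch 1 at 48 h were fitted together and 4 with all 36 libraries of the batch, and it was 2246 without MOO replicate 2. IL24 was at 63.7, 62.9 and 62.4 CPM with MOO, below all OO libraries (log2 difference 0.64, SE 0.0462, adjusted p = 4.4e-08) and above all untreated ones. HSPA1A (0.58), HSPA6 (0.67), IL1A (0.69) and KCP (0.57) were also higher with OO. BMP4 was at 88.7, 96.2 and 99.2 CPM with MOO and lower with OO (-0.79, SE 0.0592), as were SAA1 (-0.76), SLCO4A1 (-0.71) and ZBED6CL (-0.71). In each of these 9 genes MOO lay between OO and untreated cells in mean level, and none of the 9 was called in the fit of 36 libraries. Of the 36 mitosis genes 34 were lower with OO than with MOO, with a median of -0.31, and of the 37 replication genes 25, with a median of -0.27, while no gene of either list was higher. Of the ER chaperones 6 of 18 were higher with OO and none lower, and of the ATF4 and CHOP targets 8 of 20 and none. With 18 libraries in 1 fit these numbers were 19 for mitosis, 13 for replication, 0 for the chaperones and 2 for the ATF4 and CHOP targets, and with 36 libraries no gene of the 4 lists was called, while the medians for mitosis and replication were -0.31 and -0.28. The number for the chaperones lay between 2 and 9 when 1 library was left out. CEMIP, among the genes that fell most, differed by -0.02 (SE 0.0551) between the mixtures, and KRT34 by -0.09 (SE 0.0588), with neither called.

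Whole CKI holds oxymatrine and oxysophocarpine among its many compounds. OO and CKI differed at 48 h in 9396 of 14549 genes (64.6%), 4828 higher (33.2%) and 4568 lower (31.4%) with OO, and 1509 differed by at least 2-fold (10.4%). HSPA5 was at 789, 723 and 732 CPM with CKI, below the 1240 to 1320 CPM of untreated cells and the 7630 to 7980 CPM with OO (log2 difference 3.40, SE 0.0442, adjusted p = 8.3e-21), and DDIT3 was at 19.7, 18.3 and 17.4 CPM with CKI (3.47). All 18 ER chaperones were higher with OO than with CKI, with a median of 1.37, and so were 18 of 20 ATF4 and CHOP targets, with a median of 1.62. HSPA6 (4.90), IL24 (3.86), KRT34 (3.78) and the cholesterol exporter ABCA1 (3.53) were also higher with OO, and ABCA1 was at 10.5, 8.17 and 11.7 CPM with CKI. In the other direction, CYP1A1 was at 62.5, 60.2 and 60.6 CPM with CKI, well above the OO libraries (-3.28, SE 0.0752), and CST1, a cystatin gene with close copies, at 1760, 1670 and 1700 CPM against 201, 202 and 166 CPM with OO (-3.16, SE 0.0602). ITGA10 (-3.59), ANGPTL4 (-3.24) and SLCO4A1 (-3.01) were lower with OO too. For CST1 and ITGA10 the untreated level lay between those of OO and CKI. All 37 replication genes were lower with OO than with CKI, with a median of -0.87, whereas of 36 mitosis genes 15 were higher and 9 lower (5 and 4 with 36 libraries in 1 fit). Ribosomal proteins were higher with OO in 38 of 40 and ribosome biogenesis genes in 24 of 27, with medians of 0.44 and 0.59 and none lower, and 13 of 14 heat shock genes were higher (7 of 15 with 36 libraries in 1 fit). Cholesterol genes were lower in 22 of 24 and glycolysis genes in 21 of 26. MMP1, at 210, 192 and 181 CPM with CKI, differed by 0.12 (SE 0.0483, adjusted p = 0.037) from OO, CEMIP by -0.04 (SE 0.0677, adjusted p = 0.6), DUSP5 by 0.02 (adjusted p = 0.7) and VEGFA by -0.05 (adjusted p = 0.31).

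**Figure D4:**
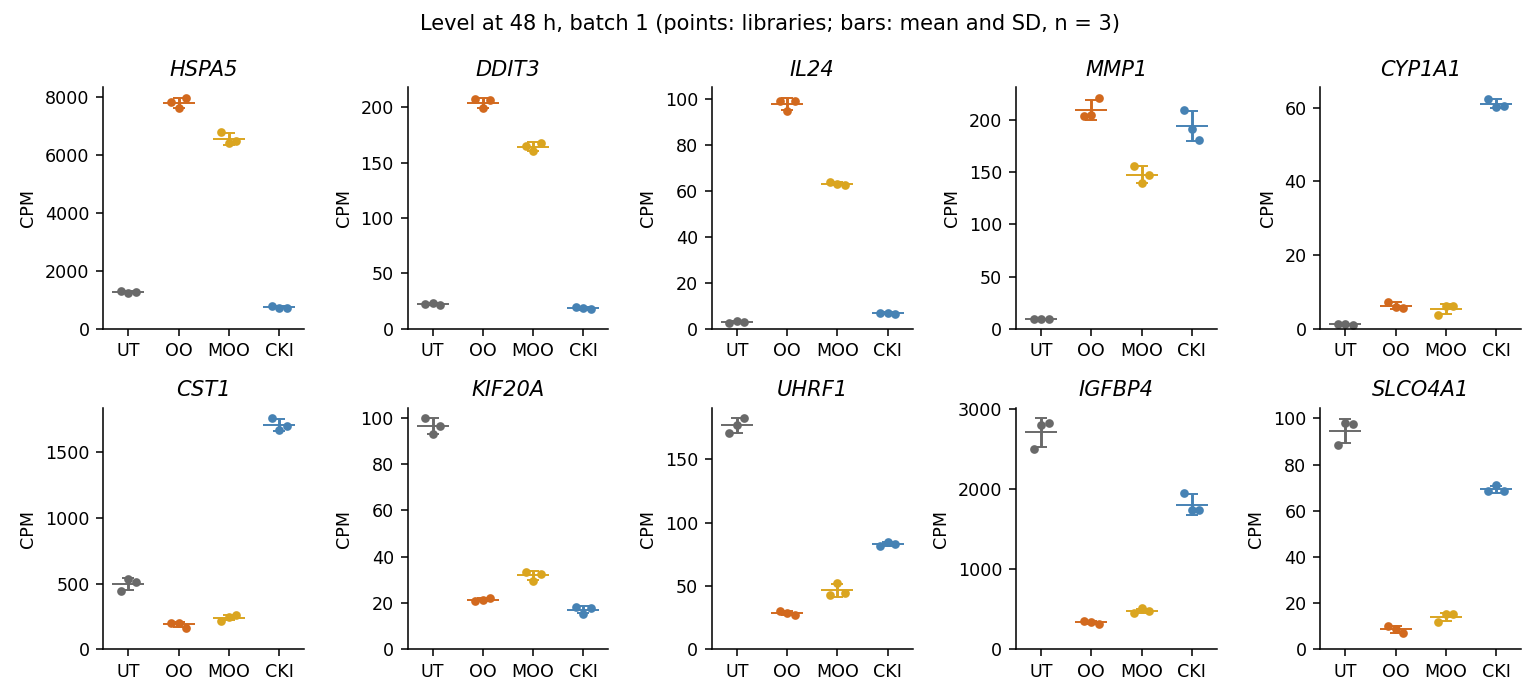
Level at 48 h of 10 genes in untreated cells (UT) and in cells given OO, MOO or CKI, in CPM on linear axes that start at 0. Points are libraries and bars the mean and SD of 3 libraries. HSPA5, DDIT3 and IL24 are high with OO and MOO and low with CKI, CYP1A1 and CST1 are high with CKI, and MMP1 is high with all 3.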

How the data were processed

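RNA of 6 cultures of MDA-MB-231 cells, 3 treated with OO for 48 h and 3 untreated, all of batch 1, was the subject, with 12 further libraries of batch 1 as contrast. The authors deposited 1 table of raw counts per gene for all 54 libraries, which holds 27978 gene symbols, 3798 of them without a count in any library. The submitters' processing notes name FastQC 0.11.4, Trim Galore 0.3.7, STAR 2.5.3a, featureCounts of Subread 1.5.2, edgeR 3.22.3 and the build hg19. The annotation, and whether counting used the strand of these strand-specific libraries, are not given in the sources used here, so overlapping and antisense genes are uncertain. Columns were matched to samples by the names in the labels.

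After filterByExpr and TMM scaling, each gene was tested with the quasi-likelihood test of edgeR 4.0.16 in R 4.3.3 with Benjamini-Hochberg adjustment at 0.05, separately for each comparison. The difference between 48 and 24 h was an interaction term. Levels are CPM after TMM scaling over the 36 libraries of batch 1 and are not corrected for gene length, so they compare samples and not genes. Fold changes are from each fit. The script was tested on simulated data in which far fewer genes changed than here, so that test does not cover a comparison where most genes change. P-values measure the spread between 3 cultures per group of 1 line. At the depths of the 6 libraries at 48 h a gene at 1 CPM has over 20 counts per library, and in some libraries at 24 h it has fewer.

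The gene lists, and the comparison itself, were chosen with earlier results of these data known. Named were, of the called genes that averaged 10 CPM or more and did not overlap between groups, the 12 that rose and the 12 that fell most, up to 2 called members in each direction per list with a mean of at least 1 CPM, the 14 genes singled out for CKI, and the 5 largest differences in each direction in the other comparisons. Some items that these rules pick are not reported here. Members of the PSG, CXCL and S100A families, and genes given beside another mixture or a promoter, were added after their values were seen. Promoters came from RefSeq on GRCh38.p14. Alternatives were RLE factors, library sizes alone, DESeq2 1.42.0, other filters, a 2-fold threshold, fits of 36 libraries, a replicate block and leaving out each library, and, added after the data were seen, a fit of 18 libraries.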

Additional observations from a re-analysis of the deposited data

Results flagged for a closer look

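The effect of OO differed between 48 and 24 h in 1757 genes by the interaction test of edgeR. Among them were 27 of the leading genes, the core genes and the genes named from the other comparisons. Genes named only through a gene list were left out of this count, and many of them may differ as well. The values below are the log2 fold change at 48 h minus that at 24 h. All 27 were also called without OO replicate 1 at 24 h and without OO replicate 2 at 24 h.

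The fold change was higher at 48 h for HSPA6 (3.52), IL1A (2.88), MMP1 (2.48), HSPA5 (1.68), KLF10 (1.67), UPP1 (1.66), KCP (1.58), HSPA1A (1.42), ATP6V0D2 (1.36), ABCA1 (1.15), ATF3 (1.02), DDIT3 (0.97) and SCG5 (0.93). HSPA6 was not called at 24 h, where its level with OO was 0.566, 3.54 and 1.09 CPM against 1.34, 1.32 and 1.69 CPM without, so that the 2 groups overlapped. ABCA1 had 35.5, 41.8 and 58.0 CPM with OO at 24 h against 54.7, 61.5 and 64.6 CPM without and was not called there, while at 48 h it was higher with OO.

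The fold change was lower at 48 h for NGFR (-2.81), PLEKHS1 (-2.42), FAM111B (-2.36), SLCO4A1 (-2.32), BCAM (-1.94), IGFBP4 (-1.75), LGALS12 (-1.71), CD14 (-1.43), BMP4 (-1.36), RARRES3 (-1.34), COL1A2 (-1.13), PDE7B (-0.97), CCND1 (-0.91) and ZBED6CL (-0.86).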

How the results depend on the processing

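No gene named by the rules changed the sign of its fold change under any alternative that was run. With library sizes alone the split of higher against lower calls turned for ribosomal proteins (13 and 11), ribosome biogenesis (10 and 8), death genes (9 and 6), drug transporters (6 and 4) and growth signalling (9 and 8). With the 36 libraries in 1 fit, calls dropped by more than 1.5 times in 10 lists, to 1 for metallothioneins, 11 for cholesterol, 16 for the respiratory chain, 6 for ribosomal proteins, 10 for ribosome biogenesis, 8 for p53 targets, 8 for YAP and TEAD targets, 10 for ERK feedback, 8 for immediate early genes and 11 for growth signalling. AKR1C2, MT2A, MT1F, SLC30A1, RPS16, RPLP1, ZEB1, KLF2 and IER5 were among the genes not called there. Requiring a 2-fold change left 2032 genes for OO against untreated, 461 for the difference between time points, 19 for OO against MOO and 1509 for OO against CKI. With the 36 libraries of batch 1 in 1 fit, OO against MOO gave 4 genes and OO against CKI 5677, and OO against MOO gave 307 with 18 libraries. Leaving out 1 library gave 9038 to 10226 genes for OO against untreated, 1095 to 4265 for the time points, 855 to 2246 for OO against MOO and 8585 to 9576 for OO against CKI. The other settings stayed within 1.5 times of the value reported. DESeq2 gave 9204, 2373, 1166 and 8629 genes in the same order. Replicate numbers recur in all groups, but OO and untreated libraries of the same number did not deviate together at 48 h (correlations of -0.0172, -0.00653 and -0.0403, none of them the best for its library). At 24 h the correlations were 0.223, -0.0478 and 0.166, of which the first and the last were the best for their OO library, and the numbers were not taken as pairs. With the replicate number as a block 9508, 1399, 1728 and 9819 genes were called. Library sizes alone turned the split for the time points to 897 higher and 845 lower (51.5% higher, against 38.5%). Of the checks of single named genes, 99 for OO against untreated and 18 for OO against MOO lost the call and 6 gained it. Many of these losses came from the 2-fold threshold, which by definition drops a called gene with a smaller change. The calls of the 9 genes named for the time points and the 10 named for CKI were kept. The cause of the remaining shifts was not tested. Genes below 1 CPM rest on few counts.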
